A study of Homo sapiens with 12 samples.

Results

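CRISPLD2, DCAF4L1, ETV7, MYZAP, NFASC, VSIR and CYRIA are 7 genes with little RNA in HEK293T cells. They were grouped because each had a higher level in the libraries made with dCas9-p300 core than in those of the other 3 groups. They are 7 of the 24395 features counted in the series, and all 7 were present in the files. The libraries are polyadenylated RNA from HEK293T, a human embryonic kidney line carrying the SV40 large T antigen, and all 12 received guide RNAs for 4 sites at IL1RN, the gene of the interleukin 1 receptor antagonist. The groups differ in the plasmid given with the guides and hold 3 libraries each: dCas9 alone, dCas9-VP64, dCas9-p300 core, and dCas9-p300 D1399Y. Cells were transfected transiently, the submitters state an efficiency above 80% from a separate eGFP plasmid, and no group without guides was analysed here.

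p300 is a histone acetyltransferase that acetylates histone tails at enhancers and promoters of active genes. Its catalytic core joined to dCas9, a Cas9 that binds DNA without cutting it, carries that activity to a guided site, and the D1399Y substitution in the catalytic domain removes it. VP64 is an activation domain of viral origin that recruits the transcription machinery and has no acetyltransferase activity. The 7 genes share no known pathway. CRISPLD2 is a secreted protein with a CAP domain, NFASC (neurofascin) a neuronal adhesion protein of the L1 family, and VSIR (VISTA) an immune checkpoint receptor found mainly on blood cells. MYZAP belongs to the cell junctions of heart muscle, CYRIA binds the GTPase RAC1 and restrains actin branching, DCAF4L1 is a relative of DCAF4, a substrate receptor of CUL4 ubiquitin ligases, and ETV7 is a repressor of the ETS family that interferon induces.

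The genes lie on 7 different chromosomes, CRISPLD2 on 16, DCAF4L1 on 4, ETV7 on 6, MYZAP on 15, NFASC on 1, VSIR on 10 and CYRIA on 2, the chromosome that also carries IL1RN. A promoter was at hand for 3 of the 7 in RefSeq on GRCh38.p14, and these are shown because the 3 genes are among those grouped for a like pattern over the libraries. Each run is the 250 bases before the gene's start, read 5′ to 3′ on the gene's strand, and capitals mark CpG dinucleotides, the sites of DNA methylation. The positions are chr16:84819735-84819984 on the plus strand for CRISPLD2, chr1:204828402-204828651 on the plus strand for NFASC, and chr10:71773521-71773770 on the minus strand for VSIR. For NFASC the upstream one of the entries in the table was taken.
CRISPLD2: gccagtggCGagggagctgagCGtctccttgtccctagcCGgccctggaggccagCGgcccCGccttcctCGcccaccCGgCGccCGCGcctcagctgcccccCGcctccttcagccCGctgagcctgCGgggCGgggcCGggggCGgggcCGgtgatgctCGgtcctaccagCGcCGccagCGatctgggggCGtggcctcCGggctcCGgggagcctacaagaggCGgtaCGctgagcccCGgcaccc
NFASC: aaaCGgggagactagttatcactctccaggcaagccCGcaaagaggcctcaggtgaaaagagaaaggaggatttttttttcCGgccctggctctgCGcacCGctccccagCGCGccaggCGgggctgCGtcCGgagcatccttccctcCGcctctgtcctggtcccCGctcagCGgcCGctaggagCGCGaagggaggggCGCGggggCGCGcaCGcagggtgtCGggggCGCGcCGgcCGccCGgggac
VSIR: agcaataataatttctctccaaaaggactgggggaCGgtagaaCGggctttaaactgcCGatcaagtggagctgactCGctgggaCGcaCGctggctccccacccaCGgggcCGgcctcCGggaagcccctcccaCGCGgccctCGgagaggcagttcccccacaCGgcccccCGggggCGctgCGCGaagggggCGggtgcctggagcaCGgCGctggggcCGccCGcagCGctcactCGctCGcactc
The 3 runs are rich in G and C. CRISPLD2 has a GC content of 77.6% with 27 CpG dinucleotides, NFASC 69.6% with 27, and VSIR 69.6% with 25. Over the 11271 promoters of tested genes in the same window the medians were 65.2% and 21. The letters GGGCGG, the GC box bound by SP1, were found on either strand in 3 of the 3, and in 66.951% of the promoters of tested genes and 42.307% of all 27303 promoters. The TATA box (TATAAA), the CCAAT box, the cAMP response element (TGACGTCA) and the AP-1 site (TGANTCA) were searched on both strands as well and were not in these windows. Nor were the E box (CACGTG), an interferon response motif or an ETS motif (CCGGAAG). In that order the 7 motifs occurred in 5.315%, 35.276%, 2.857%, 3.78%, 8.943%, 2.183% and 15.473% of the promoters of tested genes.

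The counts behind these genes were low, from libraries whose totals spanned 2442960 (replicate 3 of dCas9) to 5154627 (replicate 2 of the core). Replicate 3 of dCas9 stood apart: its log2 ratios to the other libraries had an SD of 0.724, against 0.233 to 0.411 for the other 11. Of the HEK293T marker genes, 8 of 9 passed the filter on low counts, with summed levels of 612 to 828 CPM over the 12 libraries. CPM is the count scaled to the library size that edgeR adjusts by TMM. IL1RN, the targeted gene, lay at 6.74 ± 2.51 CPM (SD, n = 3) with dCas9, 24.7 ± 6.07 with dCas9-VP64, 83.6 ± 8.64 with dCas9-p300 core and 7.78 ± 1.42 with D1399Y. The labels state triplicate transfections and nothing on separate cultures, and the p-values therefore reflect only how these samples spread, which may be technical.

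All 7 genes sat near the bottom of the expressed range outside the core group. Divided by the length of the longest listed transcript, their mean level over the 9 libraries of the other groups was 0.291 CPM per kb for VSIR and 0.384 for DCAF4L1. CYRIA, NFASC, CRISPLD2 and MYZAP stood at 0.622, 0.608, 0.634 and 0.754 CPM per kb, and ETV7 at 0.955. The median over the 13778 tested genes with a length was 13.1 CPM per kb. VSIR was thus in percentile 0.348 of the tested genes and ETV7, the highest of the 7, in percentile 4.80. In the core libraries the length-scaled levels reached percentiles between 5.48 for DCAF4L1 and 13.7 for CRISPLD2, still in the low part of the range. All 7 passed the filter, which asked for 2.63 CPM, on unscaled library totals, in at least 3 libraries. DCAF4L1, ETV7, MYZAP and VSIR passed it only through their core libraries, so these 4 had to be higher there to be tested at all.

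The genes that act outside the cell or at its surface are described first. CRISPLD2 had 14, 21 and 3 reads with dCas9, 11, 10 and 8 with dCas9-VP64, 39, 50 and 40 with dCas9-p300 core, and 10, 8 and 14 with D1399Y. The core libraries were the 3 highest, and the lowest of all was dCas9 replicate 3, the library that stood apart. In CPM the core libraries lay between 9.66 and 10.5, and the nearest other library, dCas9 replicate 2, at 5.02. The mean was 10.2 ± 0.454 CPM (SD, n = 3) in the core group, 3.37 ± 2.02 with dCas9, 2.44 ± 0.359 with dCas9-VP64 and 2.92 ± 0.729 with D1399Y. The core group was therefore 2.84-fold above dCas9 (95% interval 1.72 to 4.68), 4.12-fold above dCas9-VP64 (2.45 to 6.92) and 3.44-fold above D1399Y (2.06 to 5.73). CRISPLD2 had the widest separation of the 7, with its lowest core library 1.92 times its highest other library.

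NFASC, which anchors sodium channel clusters at nodes of Ranvier and the axon initial segment, had the most reads of the 7. It had 26, 26 and 12 reads with dCas9, 31, 17 and 22 with dCas9-VP64, 57, 71 and 65 with dCas9-p300 core, and 32, 22 and 22 with D1399Y. The 3 groups outside the core overlapped, and the core libraries lay above them. Mean levels were 6.01 ± 1.47 CPM (SD, n = 3), 5.87 ± 1.70, 15.3 ± 1.70 and 6.97 ± 1.51 in the same order of groups. The core level was 2.50-fold that with dCas9 (95% interval 1.69 to 3.70), 2.59-fold that with dCas9-VP64 (1.76 to 3.81) and 2.18-fold that with D1399Y (1.49 to 3.20). Reads fell on 6 listed RefSeq transcripts of NFASC, of which 4 had enough to be fitted alone. Against dCas9 their log2 fold changes in the core group were 0.90 ± 0.38 (SE) for NM_001005388, 1.33 ± 0.32 for NM_001160332, 1.45 ± 0.53 for NM_001160331 and 1.97 ± 0.40 for NM_015090. NM_015090, the highest there, had 1.17 ± 0.35 against dCas9-VP64 and 0.97 ± 0.34 against D1399Y. NM_001005389, not fitted, had 2, 3 and 2 reads in the core libraries and 5, 1 and 4 with dCas9-VP64. NM_001160333, also not fitted, had 1, 3 and 4 reads in the core libraries and 4, 0 and 1 with dCas9. These isoforms share exons, and how shared reads were assigned was not given in the sources used here. Differences among them are therefore uncertain.

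VSIR, which dampens T cell responses, had 2, 6 and 10 reads with dCas9, 5, 3 and 5 with dCas9-VP64, 17, 35 and 20 with dCas9-p300 core, and 3, 4 and 5 with D1399Y. The lowest core library, replicate 1 at 4.50 CPM, was 1.22 times the highest other library, dCas9 replicate 3 at 3.70 CPM. That was the narrowest separation of the 7, and it was set by the dCas9 library that stood apart. Mean levels were 1.90 ± 1.62 CPM (SD, n = 3) with dCas9, 1.09 ± 0.285 with dCas9-VP64, 5.51 ± 1.15 with dCas9-p300 core and 1.10 ± 0.263 with D1399Y. The log2 fold change of the core group against dCas9 was 1.64 ± 0.43 (SE), and 2.40 ± 0.44 without dCas9 replicate 3. It was 2.32 ± 0.45 against dCas9-VP64 and 2.31 ± 0.46 against D1399Y, the largest of the 7 in both. VSIR lies within the span of CDH23, a cadherin gene, and the strand setting of the counting was not given in the sources used here. CDH23 itself differed in the core group by a log2 fold change of 0.26 ± 0.17 against dCas9, 0.34 ± 0.17 against dCas9-VP64 and 0.36 ± 0.17 against D1399Y, with adjusted p-values of 0.879, 1.00 and 1.00 in edgeR's quasi-likelihood test.

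**Figure D1:**
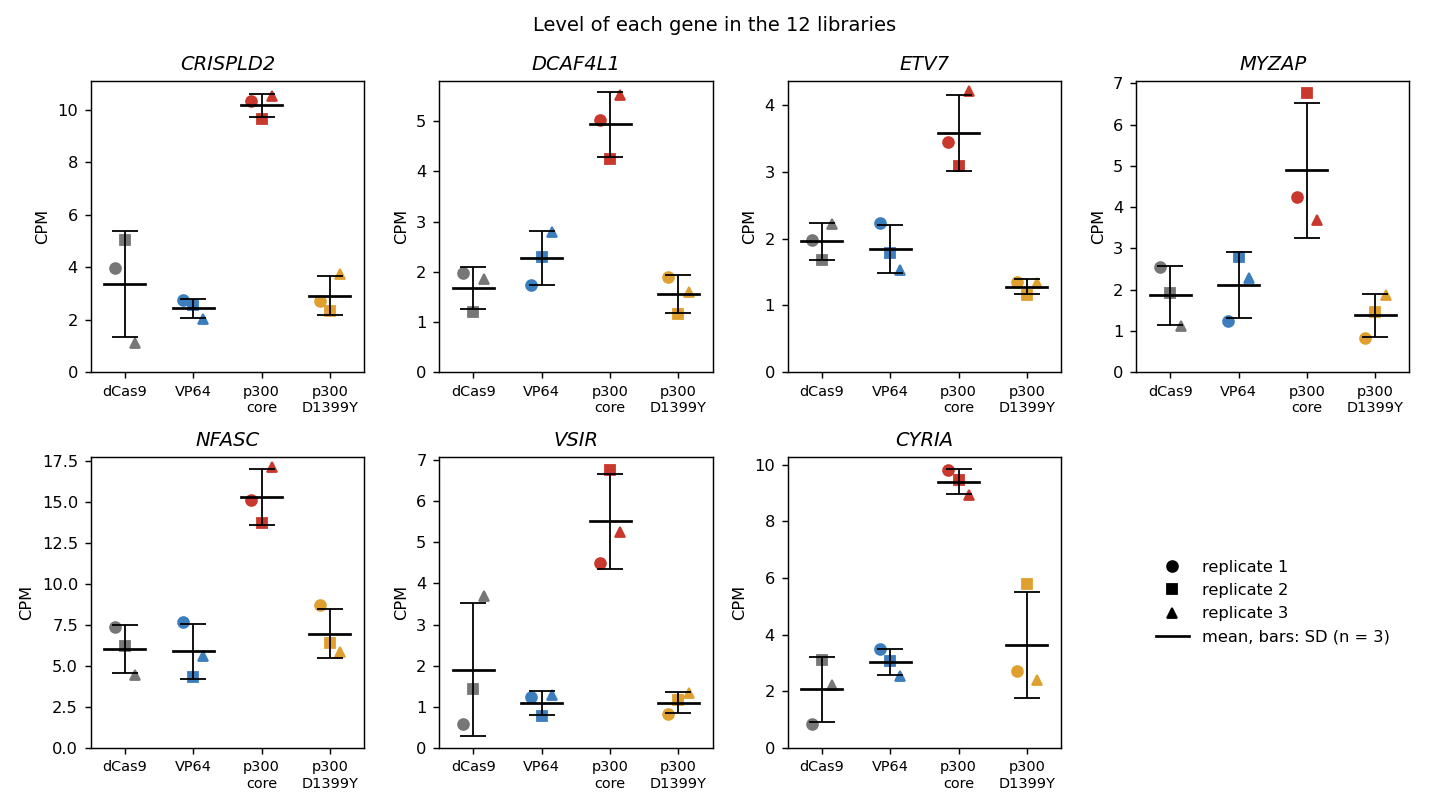
Level of each of the 7 genes in CPM (library-scaled counts, linear axis from 0) in the 12 libraries, by group, with one symbol per replicate, the mean as a line and the SD as bars (n = 3). In every panel the 3 core libraries lie above the 9 others, with the smallest gap for VSIR (4.50 against 3.70 CPM). The D1399Y libraries lie below all others only in the ETV7 panel.

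Among the intracellular genes, MYZAP had 9, 8 and 3 reads with dCas9, 5, 11 and 9 with dCas9-VP64, 16, 35 and 14 with dCas9-p300 core, and 3, 5 and 7 with D1399Y. Its core libraries were unequal, with replicate 2 at 6.76 CPM and the others at 4.24 and 3.68, and the highest other library lay at 2.80. The mean was 1.86 ± 0.721 CPM (SD, n = 3) with dCas9 and 4.89 ± 1.64 with dCas9-p300 core, while dCas9-VP64 gave 2.11 ± 0.795 and D1399Y 1.37 ± 0.528. The log2 fold changes of the core group were 1.37 ± 0.40 (SE) against dCas9, 1.23 ± 0.38 against dCas9-VP64 and 1.84 ± 0.42 against D1399Y. MYZAP shares its first exons with GCOM1, a longer transcription unit that runs on into POLR2M, so the assignment of reads between them is uncertain. GCOM1 had a level of 18.7 to 42.2 CPM over the 12 libraries with core libraries at 20.1, 27.0 and 21.6, inside the range of the others. Its log2 fold changes were 0.12 ± 0.25, −0.28 ± 0.25 and −0.36 ± 0.25 in the same 3 comparisons, and none passed the threshold.

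CYRIA had 3, 13 and 6 reads with dCas9, 14, 12 and 10 with dCas9-VP64, 37, 49 and 34 with dCas9-p300 core, and 10, 20 and 9 with D1399Y. Its core libraries lay close together, at 9.80, 9.47 and 8.95 CPM, and the highest other library was D1399Y replicate 2 at 5.78. Mean levels were 2.06 ± 1.14 CPM (SD, n = 3), 3.02 ± 0.465, 9.40 ± 0.430 and 3.63 ± 1.87 in the order dCas9, dCas9-VP64, core and D1399Y. The core level was 4.43-fold that with dCas9 (95% interval 2.50 to 7.86), the largest fold against dCas9 among the 7, 3.09-fold that with dCas9-VP64 (1.83 to 5.21) and 2.60-fold that with D1399Y (1.55 to 4.37). The log2 value against dCas9, 2.15 ± 0.38 (SE), became 2.66 ± 0.46 without dCas9 replicate 2.

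DCAF4L1 had 7, 5 and 5 reads with dCas9, 7, 9 and 11 with dCas9-VP64, 19, 22 and 21 with dCas9-p300 core, and 7, 4 and 6 with D1399Y. The core libraries, at 4.25 to 5.53 CPM, lay above the highest dCas9-VP64 library at 2.80, and the dCas9 and D1399Y libraries reached at most 1.98. Mean levels were 1.68 ± 0.422 CPM (SD, n = 3), 2.28 ± 0.531, 4.94 ± 0.643 and 1.55 ± 0.374 in the same order. The log2 fold changes of the core group were 1.56 ± 0.32 (SE), 1.10 ± 0.29 and 1.63 ± 0.32 against dCas9, dCas9-VP64 and D1399Y. DCAF4, whose sequence DCAF4L1 resembles, so that reads could be exchanged between them, stood at 44.8 ± 6.75 CPM in the core group and 48.5 ± 4.40 with dCas9, a log2 fold change of −0.11 ± 0.15 that did not pass the threshold.

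ETV7 had the fewest reads: 7, 7 and 6 with dCas9, 9, 7 and 6 with dCas9-VP64, 13, 16 and 16 with dCas9-p300 core, and 5, 4 and 5 with D1399Y. The lowest core library, at 3.09 CPM, was 1.38 times the highest other one, dCas9-VP64 replicate 1 at 2.23, and the D1399Y libraries, at 1.16 to 1.36, lay below all others. Mean levels were 1.96 ± 0.275 CPM (SD, n = 3), 1.85 ± 0.358, 3.58 ± 0.572 and 1.28 ± 0.109 in that order of groups. The core level was 1.83-fold that with dCas9 (95% interval 1.12 to 2.98) and 1.90-fold that with dCas9-VP64 (1.19 to 3.04), the lowest of the 7 in both, and 2.72-fold that with D1399Y (1.70 to 4.36). Of 8 listed transcripts of ETV7, 3 had reads. NM_001207039 had 8, 9 and 10 reads in the core libraries and 2 to 4 in every other library. NM_001207035 had 5, 7 and 6 in the core libraries and 1 to 5 elsewhere, so its groups touched, and NM_001207038 had 1 read in all.

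**Figure D2:**
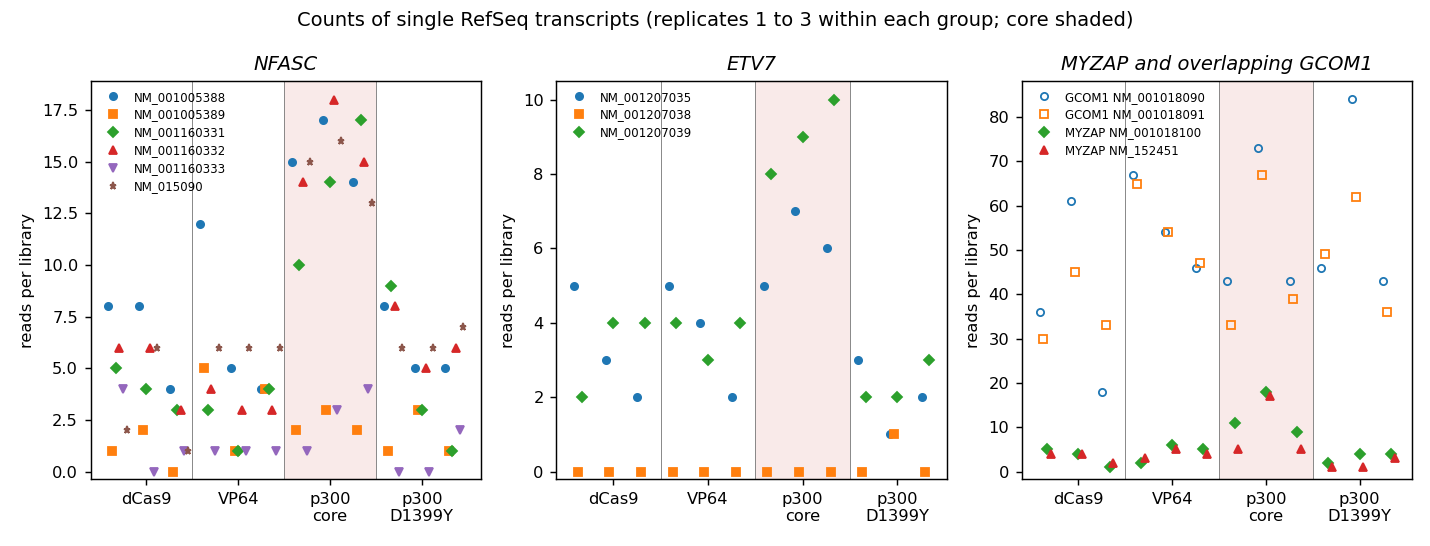
Reads per library (linear axis) for single RefSeq transcripts of NFASC, ETV7, and MYZAP with the overlapping GCOM1, with the libraries of each group side by side and the core group shaded. Counts of NM_001207039 of ETV7 are 8 to 10 in the core libraries against 2 to 4 elsewhere, while both GCOM1 transcripts (open symbols) lie above the MYZAP ones in each library and do not stand out in the core group.

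The levels in the core group were what placed these genes together, so they are a description and no p-value is attached to them. For all 7 genes the 3 core libraries exceeded the 9 others in CPM, against a background of 0.91% of the 14613 tested genes (133 genes). The sum over the 7 genes was 52.4, 53.7 and 55.3 CPM in the core libraries and 16.7 to 20.6 CPM in the other 9. Against dCas9 the median log2 fold change was 1.51, with a range of 0.87 to 2.15, and over all tested genes the median was 0.02. The 95% intervals of ETV7 and CYRIA, the lowest and the highest against dCas9, overlapped, and differences among the 7 genes were not tested. After adjustment over all tested genes, edgeR placed 0 of 7 past 0.05 in each comparison with the core group, where the background was 0.00684% (1 gene, IL1RN). In edgeR all 7 were under 0.05 before adjustment in each of these comparisons, beside 3.11%, 2.11% and 1.86% of all tested genes. DESeq2 had 6, 6 and 7 of the 7 against dCas9, dCas9-VP64 and D1399Y, beside 399, 233 and 220 of 14613 genes. With limma-voom it was 7 of 7 in each, beside 496, 338 and 306 genes. Their choice favoured such values. DESeq2 placed CYRIA past the threshold against dCas9 (background 0.0274%) and CRISPLD2 and NFASC against dCas9-VP64 (background 0.0342%), and 0 of 7 against D1399Y (background 0.0274%). With limma-voom there were 0 of 7 in each, at backgrounds of 0.0137%, 0.00684% and 0.00684%. The label of genes raised by the core thus rests on separation between libraries, which their choice favoured, and not on calls of the main test. The calls of every tool used the same values the genes were chosen on, so they lend the label no support. Fewer cells with the RNA and less RNA per cell cannot be told apart in these bulk samples.

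Core replicate 3 and D1399Y replicate 3 carry the label CV42 and the other 10 libraries CV41. These labels are read here as pools from their form alone, and whether they are sequencing pools is not known. Within CV41 alone the core log2 fold changes of the 7 genes ranged from 0.74 to 2.18 against dCas9, 0.80 to 2.35 against dCas9-VP64 and 0.93 to 2.50 against D1399Y. With the pool as a covariate they ranged from 0.77 to 2.26, 0.83 to 2.31 and 1.13 to 2.31. Without dCas9 replicate 3 the values against dCas9 were 1.16 ± 0.28 (SE) for CRISPLD2, 1.63 ± 0.39 for DCAF4L1, 0.95 ± 0.38 for ETV7, 1.17 ± 0.42 for MYZAP, 1.17 ± 0.27 for NFASC and 2.18 ± 0.43 for CYRIA, beside the value for VSIR given above.

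The comparisons without a core library are a description, and their test results are no support for an absence of change. The genes were chosen for low levels in all these groups. In addition, DCAF4L1, ETV7, MYZAP and VSIR passed the filter on low counts only through the core libraries. Small differences among these groups were thus largely set by the choice, and the counts do not show that VP64 or D1399Y left the genes unchanged. None of the 7 passed the threshold with dCas9-VP64 against dCas9, with D1399Y against dCas9 or with dCas9-VP64 against D1399Y in edgeR's quasi-likelihood test with Benjamini-Hochberg adjustment, where the background was 0.0% of 14613 genes each time. In edgeR 0 of 7 had an unadjusted p under 0.05 in any of the 3, at backgrounds of 3.07%, 5.89% and 0.664%. DESeq2 and limma-voom gave 0 of 7 before and after adjustment. Before adjustment the backgrounds were 409, 876 and 56 of 14613 genes in DESeq2 and 487, 838 and 99 in limma-voom. After adjustment the backgrounds were 0.00684%, 0.00684% and 0.0137% in DESeq2 and 0.0%, 0.00684% and 0.0% in limma-voom. The smallest adjusted p-values among the 7 were 0.929, 0.633 and 1.00 in edgeR. The median log2 fold changes of the 7 genes were −0.05, −0.28 and −0.01, with 3, 2 and 3 of the 7 above 0, and over all tested genes the medians were 0.00, 0.00 and −0.01.

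With dCas9-VP64 against dCas9 the upper 95% bound of the fold change was 1.25 for CRISPLD2, 1.48 for NFASC and 1.45 for VSIR, and 1.99 for ETV7, 2.17 for MYZAP, 2.54 for DCAF4L1 and 2.79 for CYRIA. IL1RN was 3.73-fold higher with dCas9-VP64 than with dCas9 (95% interval 2.52 to 5.53, adjusted p = 0.0749 in edgeR), and the call changed with the replicate number as a block, where its log2 fold change was 1.89 ± 0.21 (SE) with an adjusted p of 0.0232. With D1399Y against dCas9 the upper bounds were 1.49 for CRISPLD2, 2.15 for DCAF4L1, 1.36 for ETV7, 1.53 for MYZAP, 1.75 for NFASC, 1.48 for VSIR and 3.28 for CYRIA. CYRIA had the largest of these differences, a log2 fold change of 0.77 ± 0.44 (SE), a fold of 1.70 with an interval of 0.886 to 3.28, which did not exceed the spread between libraries. D1399Y replicate 2, at 5.78 CPM, was high for CYRIA and the other D1399Y libraries, at 2.71 and 2.40, were not.

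**Figure D3:**
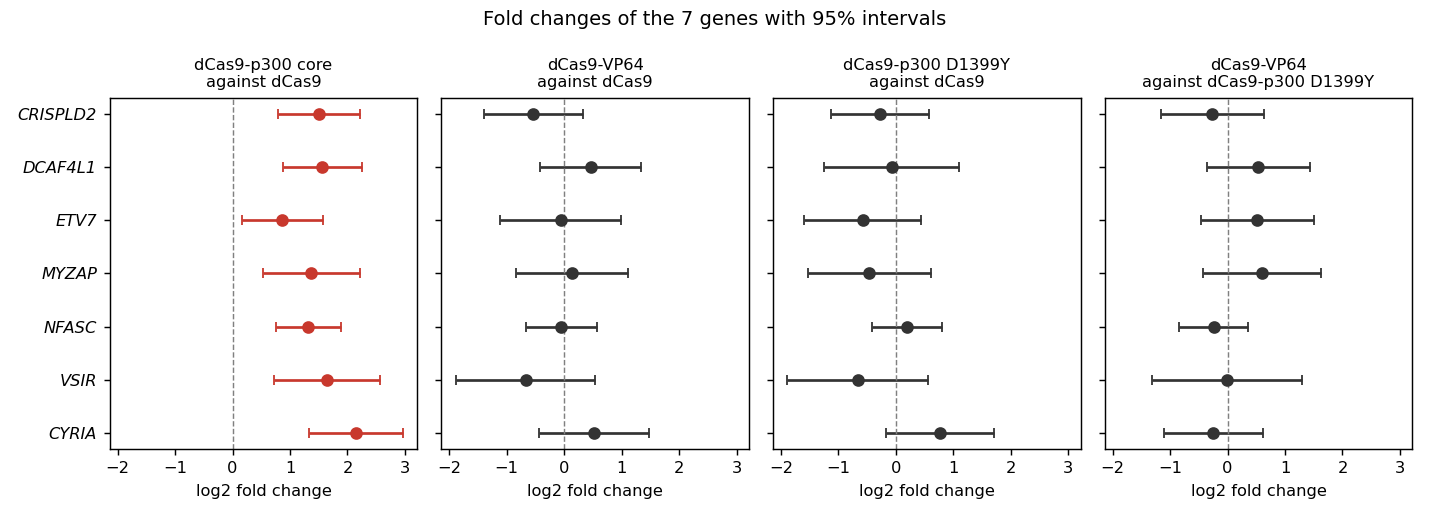
Log2 fold changes of the 7 genes with 95% intervals (edgeR), with the dashed line at 0. Red marks dCas9-p300 core against dCas9, one of the comparisons used to choose the genes, and black the 3 comparisons without core libraries. The red values run from 0.87 for ETV7 to 2.15 for CYRIA, and every black interval includes 0.

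Genes beside the 7 on the chromosomes were examined for a change in the same direction. The nearest tested gene on each side and 2 overlapping genes gave 16 neighbours, in the gene order of GRCh38. Those on each side lay 1 to 3 places away among protein-coding genes, so some were not adjacent. In edgeR 0 of 16 passed the threshold in any comparison of the core group with another, where the background was 0.00684%, and 0 of 16 had an unadjusted p under 0.05, against 3.11%, 2.11% and 1.86% of all tested genes. Their median log2 fold change was 0.18 against dCas9, 0.03 against dCas9-VP64 and 0.02 against D1399Y, with 12, 10 and 9 of 16 above 0. Over all tested genes 52.5%, 49.5% and 51.1% lay above 0 in the same order, with medians of 0.015, −0.0020 and 0.0050. In dCas9 replicate 3, the library that stood apart, some neighbours were low and others high. KCTD20 had 58.2 CPM there, against 134 and 146 in the other dCas9 libraries. LRRN2 had 20.0 CPM there, against 6.23 and 15.5. The share of this library in the values against dCas9 was not tested. USP10, a deubiquitinase, and ZDHHC7, a palmitoyltransferase, flank CRISPLD2 and had values of 0.05 ± 0.11 (SE) and 0.03 ± 0.14 against dCas9. For CYRIA, the RNA helicase gene DDX1, 2 places away, had −0.02 ± 0.10. SMC6, a subunit of a chromosome maintenance complex, was 3 places away and had 0.19 ± 0.16. The highest was SLC29A3, a nucleoside transporter gene on the lower side of VSIR, at 0.60 ± 0.31, and the lowest TMEM81, on the higher side of NFASC, at −0.34 ± 0.23. Each of the 7 genes had a higher log2 fold change against dCas9 than all of its neighbours, as a gene chosen for that value would tend to.

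**Figure D4:**
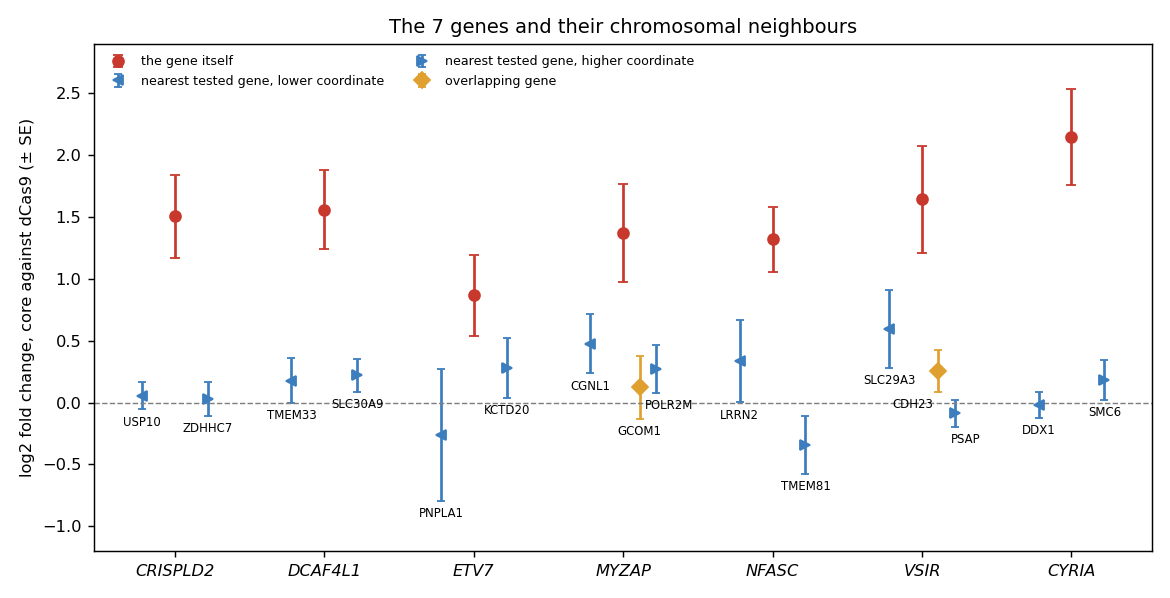
Log2 fold change (± SE) of dCas9-p300 core against dCas9 for each of the 7 genes (red circles), the nearest tested gene on either side (blue triangles) and overlapping genes (yellow diamonds). The 16 neighbours lie between −0.34 (TMEM81) and 0.60 (SLC29A3), below the 7 genes, which lie between 0.87 and 2.15.

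Genes related to the 7 by family or by known partnership were counted next, 138 in all, of which 99 passed the filter. In edgeR 0 of 99 passed the threshold in any comparison with the core group, where the background was 0.00684% each time. Before adjustment 4, 1 and 1 of the 99 were under 0.05 against dCas9, dCas9-VP64 and D1399Y, beside 3.11%, 2.11% and 1.86% of all tested genes. The median log2 fold change of the 99 was 0.09, 0.03 and −0.03, and that of all tested genes 0.015, −0.0020 and 0.0050. The values named here are of the core group against dCas9, with adjusted p-values between 0.879 and 0.973 in edgeR's test. Around CRISPLD2, 6 of 14 CAP family genes were tested, and the highest was GLIPR2 at 0.36 ± 0.23 (SE), with CRISPLD1, its closest relative, at 0.28 ± 0.18. Around NFASC, 14 of 17 axonal adhesion genes were tested, 11 of them above 0. CNTNAP2 and CNTNAP1, membrane proteins of the paranodal and nearby axon, had 0.80 ± 0.28 and 0.55 ± 0.26. Mean levels of both were lower with dCas9 than in the 3 other groups. For CNTNAP2 the means were 39.6 to 46.8 CPM in those groups, against 26.3 ± 15.2 (SD, n = 3) with dCas9. Around VSIR, 6 of 13 B7 family and related genes were tested. ILDR2, an immunoglobulin-like membrane protein, had 0.68 ± 0.23 against dCas9 and 0.19 ± 0.23 against dCas9-VP64.

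Among the partners of the intracellular genes, 14 of 15 genes listed for MYZAP, of cell junctions and related functions, were tested. MRTFB, a coactivator that senses actin, had 0.40 ± 0.24 (SE), and the desmosomal PKP2 had 0.33 ± 0.18. For CYRIA, 12 of 15 genes of the RAC1 and WAVE pathway were tested. RAC1 had −0.22 ± 0.13 and CYFIP2 0.24, and CYRIB, the other member of CYRIA's family, 0.02 ± 0.13 at 170 ± 14.4 CPM in the core group. For DCAF4L1, 18 of 19 genes of the CUL4 ligase were tested. RBX1, its RING subunit, had −0.36 ± 0.15 and DCAF13, a further receptor, −0.20 ± 0.14. For ETV7, 17 of 27 ETS family genes were tested, with ETS1 at 0.74 ± 0.43 and ETV6, its closest relative, at −0.09 ± 0.17. Of 18 interferon-induced genes listed beside it, 12 were tested and 6 of these lay above 0. OAS3, an antiviral enzyme, had 0.96 ± 0.34, and against D1399Y its value was 0.29 ± 0.31. The close relatives tested, picked by known family without a measure of sequence likeness, were CRISPLD1, DCAF4, ETV6, CYRIB, and NRCAM and L1CAM of the NFASC family. Their values lay between −0.11 (DCAF4) and 0.51 ± 0.34 (NRCAM), with CRISPLD1 at 0.28 and L1CAM at 0.27 ± 0.39, and 0 of these passed the threshold.

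Markers of other cell types were read because several of the 7 genes are known from other tissues. Of 8 blood cell markers 2 passed the filter, and their summed level was 12.7 to 14.6 CPM in the core libraries and 8.67 to 18.2 CPM in the others. PTPRC, the pan-leukocyte marker, had at most 5 reads in any library, SPI1 had 3 in all 12 together and CD3E had 0. Of 6 endothelial markers 0 passed, with sums of 2.32 to 3.68 CPM in the core libraries and 0.717 to 5.56 in the others. Of 6 fibroblast markers 2 passed, with sums of 26.9 to 29.2 against 22.1 to 31.8 CPM. In each list the core range lay within that of the other libraries.

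The tested genes whose profile over the 12 libraries came nearest to the mean profile of the 7 were IL10RA, SMIM17, CAPN5, CCDC69 and PADI2. Their root mean square distances in centred log2 CPM were 0.315, 0.326, 0.333, 0.343 and 0.348. They too were chosen by likeness, so their values are a description. IL10RA, a chain of the interleukin 10 receptor, lay at 7.68, 10.8 and 12.4 CPM in the core libraries and at most at 7.08 elsewhere. SMIM17 lay at 6.18 to 6.62 CPM in the core libraries and at most at 4.84 elsewhere, 2.18-fold higher in the core group than with dCas9. CAPN5, a calcium-dependent protease, was 1.74-fold, CCDC69 1.52-fold and PADI2, a peptidylarginine deiminase, 1.80-fold higher in the core group than with dCas9.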

How the data were processed

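Messenger RNA was sequenced from 12 libraries of HEK293T cells in 4 groups of 3. The authors deposited for each library a table of raw counts, in whole numbers, for 40709 RefSeq transcripts. The build hg19 and the tools DESeq2 1.6.2, R 3.1.2, Bowtie2, SAMtools and CASAVA are named without roles, per the submitters' processing notes. The strand setting and the treatment of reads shared by isoforms, overlapping genes or duplicates were not given in the sources used here.

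Transcripts were named through RefSeq (39324) and GENCODE (517) tables. The 868 without a name held 1.07% of the reads and kept their identifiers. Counts were summed per gene to 24395 features. Names, chromosomes and gene order come from GRCh38, and promoters from RefSeq on GRCh38.p14. All 7 genes matched by symbol.

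The quasi-likelihood test of edgeR 4.0.16 (R 4.3.3) was run after filterByExpr (minimum count 10, minimum total 15, 14613 genes kept) and TMM, with the 4 group means fitted over all 12 libraries. Tests were two-sided, with Benjamini-Hochberg adjustment over all tested genes and a threshold of 0.05. Standard errors and 95% intervals were derived from each test's own p-value and its t distribution. The 6 pairwise comparisons share groups. Depth was 2442960 to 5154627 counts per library, which leaves single-digit to low double-digit counts for these genes. The code was tested on simulated data.

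The 7 genes and all gene lists were chosen with earlier results of these data known. Named beside the 7 genes were IL1RN, the 2 genes of smallest unadjusted p in each related list where none passed the threshold, the nearest tested neighbours and overlapping genes, and the 5 tested genes of nearest profile (log2 CPM, prior count 2). Of the genes this rule selects, 1 is not reported here. Closest relatives were added by relation after values had been seen. For the pairs of replicate numbers, 14 of 18 correlations of deviations from the group means exceeded 0.1, with a range of −0.18 to 0.50. All 3 did so in dCas9-p300 core against dCas9-VP64 and in D1399Y against dCas9. Alternatives were RLE factors, DESeq2 1.42.0, limma-voom (limma 3.58.1), no filter, a filter of 1 CPM in 6 libraries, the replicate block, the pool covariate, CV41 libraries alone, the compared groups alone, single transcripts and each library left out. Scalings for the count of separated genes were added after seeing the data.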

Additional observations from a re-analysis of the deposited data

How the results depend on the processing

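The counts of genes past the threshold stayed at 0 under all 21 alternatives: of the 7 genes in the 3 comparisons without core libraries, and of related genes and neighbours in the 3 comparisons with them. For the 7 genes a count of 0 was largely set by how they were chosen. The smallest adjusted p under any alternative was 0.221 for the 7 genes and 0.0867 for related genes. The replicate block, with the pairing of numbers shown by the data in only some comparisons, left these counts at 0. Over all genes it changed 1 call in the 3 comparisons without core libraries, that of IL1RN with dCas9-VP64 against dCas9 (adjusted p = 0.0232 in edgeR).

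Sign changes occurred in 16 log2 values that had not passed the threshold, and the cause was not tested. With each library left out in turn, dCas9-VP64 against dCas9 ranged from −0.22 to 0.059 for ETV7, −0.11 to 0.41 for MYZAP, −0.29 to 0.13 for NFASC and −1.12 to 0.080 for VSIR. D1399Y against dCas9 ranged from −0.62 to 0.13 for CRISPLD2, −0.30 to 0.077 for DCAF4L1 and −1.11 to 0.092 for VSIR. dCas9-VP64 against D1399Y ranged from −0.18 to 0.19 for VSIR, with 0.15 in CV41 alone, and from −0.48 to 0.24 for CYRIA. Fits of compared groups without core libraries dropped DCAF4L1, ETV7, MYZAP, VSIR and, in some, CYRIA at the filter and gave no value there. Counts of 2 to 35 reads in most libraries limit what can be told.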
